A study of Camelus bactrianus with 10 samples.

Results

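The miRNAs described here are miR-143, miR-145, miR-199a, miR-199b and miR-214, which are best known from mesenchymal cells such as smooth muscle cells and fibroblasts. They were taken by name from a table of small RNAs in exosomes, membrane vesicles shed by cells, which had been collected from blood plasma. With the species prefix and the notes on changed ends dropped, 10 of 2581 entries carried one of these names, both arms included, and they held 9 distinct sequences. No entry was named miR-145a. The exosomes came from Bactrian camels, with 1 library per camel: 5 thin camels, of 402.6 to 421.2 kg, and 5 normal camels, of 452.3 to 492.8 kg. The labels name no treatment, age or sex, and the groups are labelled by body condition, with the weight of each camel. Plasma is a mixed fluid, so fewer cells of a type shedding vesicles and less of a miRNA per vesicle cannot be told apart.

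A miRNA hairpin is cut into a duplex of 2 arms, named 5p and 3p after their place in the hairpin, and usually one arm is kept in the silencing complex while the other is degraded. The bases at positions 2 to 8 of the mature miRNA, the seed, do most of the pairing with target mRNAs. In human and mouse, miR-143 and miR-145 are cut from one primary transcript that is highly active in smooth muscle, where both act on the switch between contractile and dividing cells. MiR-214 and one hairpin of miR-199a are cut from a transcript antisense to an intron of the dynamin 3 gene, which is active in mesenchyme and in fibrosis, hepatic stellate cells included. A further miR-199a hairpin lies antisense to the dynamin 2 gene with no miR-214 beside it, and miR-199b antisense to the dynamin 1 gene. In human liver, miR-199a-3p and miR-199b-3p are abundant and are low in hepatocellular carcinoma, the tumour named in the series' title.

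The sequences below are those of the table, written 5′ to 3′ with the seed in capitals, and are shown because they decide which members can be told apart. R and L with a number in an entry's name mark bases gained or lost at the right or left end.
miR-143-3p (hsa-miR-143-3p_R+1): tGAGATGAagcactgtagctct
miR-143-5p (hsa-miR-143-5p_R-1): gGTGCAGTgctgcatctctgg
miR-145-5p (hsa-miR-145-5p): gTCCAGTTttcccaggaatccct
miR-145-3p (hsa-miR-145-3p_L-2R+1): aTTCCTGGaaatactgttctt
miR-199a-5p (hsa-miR-199a-5p): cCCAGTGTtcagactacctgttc
miR-199b-5p (hsa-miR-199b-5p_R-1): cCCAGTGTttagactatctgtt
miR-199a-3p and miR-199b-3p (hsa-miR-199a-3p_R-1 and chi-miR-199b-3p): aCAGTAGTctgcacattggtt
miR-214-3p (hsa-miR-214-3p_1ss22TA): aCAGCAGGcacagacaggcaga
miR-214-5p (hsa-miR-214-5p): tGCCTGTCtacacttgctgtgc

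The entries of miR-199a-3p and miR-199b-3p were one sequence with the same value in every library, so they are treated below as 1 measurement, miR-199a/b-3p. MiR-199a-5p and miR-199b-5p shared their seed and differed by C10T and C17T, counted from 1 at the 5′ end with the base of miR-199a-5p first, and could be told apart. A goat entry named miR-199c-5p held the same sequence and values as miR-199b-5p. The miR-145-3p entry had lost 2 bases at its left end, as its name records, so the bases in capitals are not those of the full-length arm's seed. The entry of miR-214-3p carried the substitution T22A at its last base and was the only one of that arm. The arms of miR-145 paired with each other over an unbroken stretch of 8 bases, CCAGGAAT in miR-145-5p, and those of miR-199a over 8 bases, CAGACTAC in miR-199a-5p. No seed of miR-143 or miR-145 occurred in another entry of the table, while that of miR-214-3p occurred in 2 predicted small RNAs.

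Values are the authors' normalized counts. Few values above 0 lay close to 0, so a value listed at 0 does not show absence. Of 2581 entries ordered by mean level, miR-199a-5p was 54, miR-199a/b-3p 64, miR-143-3p 91, miR-145-5p 247, miR-145-3p 359, miR-199b-5p 406, miR-214-3p 425, miR-143-5p 770 and miR-214-5p 2547. All 9 sequences together made up 0.806 ± 0.319% of the total of distinct sequences in thin and 0.583 ± 0.158% in normal libraries (SD, n = 5 each), with ranges of 0.527% to 1.28% and 0.400% to 0.766% that overlapped. MiR-199 entries made up 79.1% to 88.4% of that sum in thin and 58.6% to 90.9% in normal libraries, and miR-143 entries 10.49% to 18.7% and 8.93% to 34.0%.

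Libraries totalled 532999 to 757352 normalized counts, and thin 4, normal 4 and normal 5 were the 3 deepest by the steps of their values. Normal 4 and normal 5 also stood apart by entries named after a miRNA cluster known from primates alone, at 0.485% and 0.444% of their totals against at most 0.0103% in any other library. Red blood cell markers made up 8.30% to 15.2% of thin and 15.02% to 29.0% of normal libraries, platelet markers 5.83% to 10.2% and 4.68% to 7.37%, leukocyte markers 1.87% to 6.29% and 2.60% to 4.33%, and hepatocyte markers 1.38% to 9.88% and 3.17% to 13.4%. All 5 red blood cell, 5 platelet and 6 leukocyte markers and 3 of 4 hepatocyte markers were listed. The 5 mesenchymal markers checked are members described here and add nothing to them. The part of the other cell types in the values below was not tested.

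**Figure D1:**
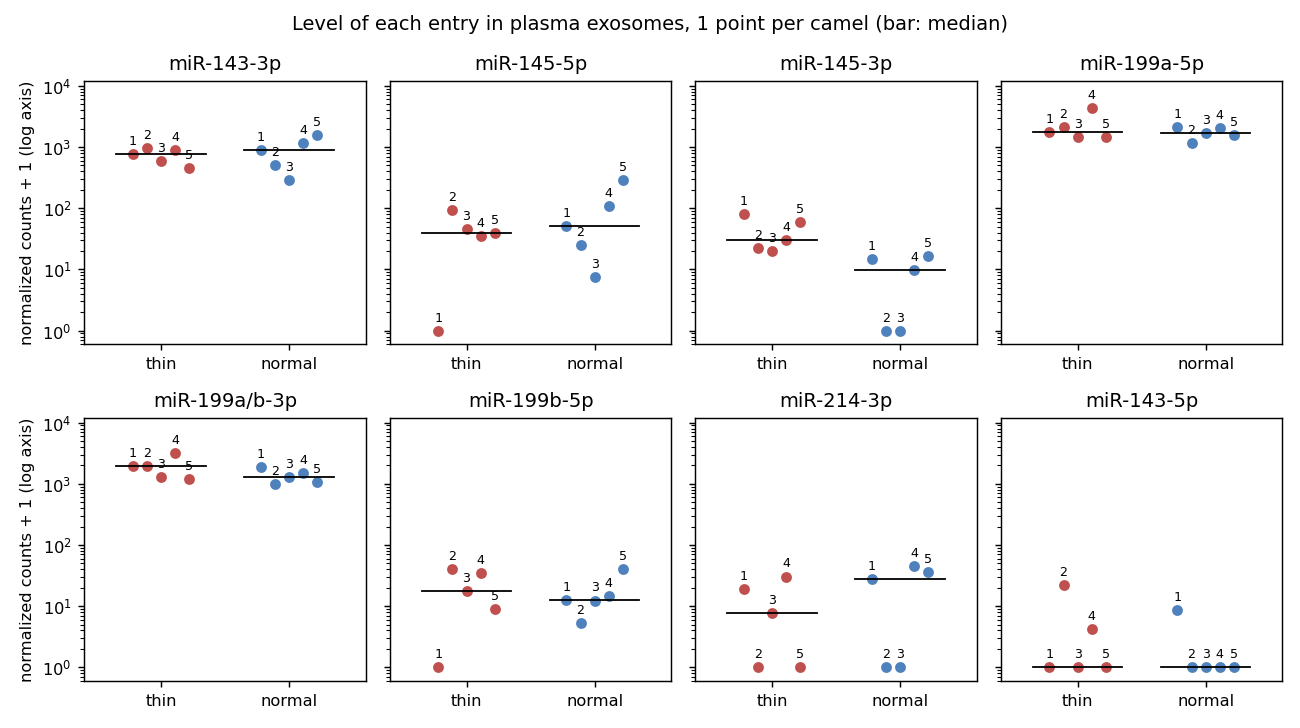
Normalized counts plus 1 on a log axis for 8 of the 9 sequences, with 1 numbered point per camel, thin left and normal right, and the median as a bar; points at 1 are values listed at 0. Thin and normal points overlap in every panel but that of miR-145-3p, where the lowest thin value is 18.7 and the highest normal value 15.6.

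The first question was whether any of these miRNAs differed in level between exosomes of thin and of normal camels. None passed the test. Of the 10 entries, 8 reached 10 normalized counts in at least 5 libraries and were tested with limma among 468 small RNAs, and 0 of the 8 had a Benjamini-Hochberg adjusted p of 0.05 or less, against 9 of all 468 (1.92%): 6 higher in thin camels (1.28%) and 3 lower (0.641%). At an unadjusted p under 0.05 there was 1 member, miR-145-3p, against 55 of all 468 (11.8%), or 5.77% when only those higher in thin camels are counted. Counted by distinct sequence, 3 of 7 had a higher and 4 a lower mean log2 value in thin camels. Their median log2 fold change was -0.08, against -0.01 over all tested. Fold changes are thin over normal on the log2(value + 1) scale throughout.

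MiR-199a-5p, which is cut from the 5′ side of the miR-199a hairpin, held 1754, 2126, 1436, 4338 and 1481 normalized counts in thin 1 to 5, against 2097, 1183, 1669.9, 2012 and 1585 in normal 1 to 5. Thin 4 lay far above all other libraries, thin 2 just above normal 1, the highest of the normal camels, and the other 3 thin values within the normal range. The means were 2227 ± 1212 in thin and 1709 ± 366 in normal camels (SD, n = 5 each). The log2 fold change, here and below with its SE, was 0.28 ± 0.31 (95% interval -0.39 to 0.95; limma adjusted p = 0.777), and without thin 4 it was 0.0023 (adjusted p = 0.996).

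MiR-199a/b-3p, the 3′ arm of the miR-199a and miR-199b hairpins, held 1949.6, 1940.5, 1289, 3189.97 and 1179 normalized counts in thin 1 to 5, against 1877, 985, 1304, 1472 and 1067 in normal 1 to 5. Thin 4 was again the highest, thin 1 and thin 2 lay just above normal 1, and the groups overlapped. The means were 1909.5 ± 800.2 in thin and 1341 ± 356 in normal camels, a log2 fold change of 0.46 ± 0.30 (95% interval -0.19 to 1.10; limma adjusted p = 0.603). Without thin 4 it was 0.25 (adjusted p = 0.697), and without the 3 deepest libraries 0.21 (adjusted p = 0.902).

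MiR-143-3p, the kept arm of miR-143, held 781, 949, 598, 894 and 459 normalized counts in thin 1 to 5, against 883, 502, 293, 1179 and 1562 in normal 1 to 5. The thin camels lay inside the normal range, whose top was formed by normal 4 and normal 5. The means were 736 ± 205 in thin and 884 ± 510 in normal camels, a log2 fold change of -0.08 ± 0.42 (95% interval -1.0 to 0.84; limma adjusted p = 0.963). Its sign followed the libraries and the scaling: without normal 4 and normal 5 it was 0.49 (adjusted p = 0.666), and with equal library totals 0.11 (adjusted p = 0.940). The other arm, miR-143-5p, was listed above 0 in thin 2, thin 4 and normal 1 alone, at 21.1, 3.23 and 7.59 normalized counts, and was not tested.

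MiR-145-5p, the arm by which miR-145 is usually measured, held 0, 92.8, 45.5, 33.6 and 38.1 normalized counts in thin 1 to 5, against 49.3, 24.2, 6.63, 106 and 289 in normal 1 to 5. The lowest value was that of thin 1 and the highest those of normal 5 and normal 4. The log2 fold change was -1.13 ± 1.24 (95% interval -3.83 to 1.56; limma adjusted p = 0.766). It was 0.08 without normal 4 and normal 5 (adjusted p = 0.976) and -0.01 without thin 1 (adjusted p = 0.994).

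MiR-145-3p, the opposite arm, was the one member whose groups did not overlap. It held 79.0, 21.1, 18.7, 29.5 and 58.7 normalized counts in thin 1 to 5, against 13.9, 0, 0, 8.91 and 15.6 in normal 1 to 5. Every thin camel lay above every normal camel, as was the case for 10 of the 468 tested small RNAs (2.14%), and 17 (3.63%) were separated in either direction. The entry reached 10 normalized counts in 7 libraries, all 5 thin ones among them, so the thin group alone met the filter for testing. The separation and the p-value below are therefore given as a description. The log2 fold change was 2.93 ± 0.99 (95% interval 0.79 to 5.07, limma unadjusted p = 0.0113, adjusted p = 0.230), the 23rd smallest p of 468, so the difference did not pass. The size depended on the values listed at 0: the log2 fold change was 1.51 on the log2(value + 10) scale (adjusted p = 0.140), 2.28 with each 0 set to 5 steps of its library, a step being the spacing of the low values (adjusted p = 0.145), and 1.88 with each 0 set to 10 steps (adjusted p = 0.146). The closest values were those of thin 3, at 18.7, and normal 5, at 15.6 normalized counts.

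MiR-199b-5p held 0, 40.1, 16.7, 33.6 and 7.93 normalized counts in thin 1 to 5, against 11.4, 4.32, 11.4, 13.9 and 40.1 in normal 1 to 5. The groups covered the same range, apart from the 0 of thin 1. Its log2 fold change was -0.23 ± 1.04 (95% interval -2.48 to 2.02; limma adjusted p = 0.963) and turned to 0.66 without thin 1 (adjusted p = 0.762). MiR-214-3p, which in human and mouse shares the transcript of one miR-199a hairpin, held 18.1, 0, 6.69, 29.5 and 0 normalized counts in thin 1 to 5, against 26.6, 0, 0, 43.6 and 35.5 in normal 1 to 5. It was listed at 0 in 4 of 10 libraries, from both groups, and its log2 fold change was -0.66 ± 1.5 (95% interval -3.91 to 2.58; limma adjusted p = 0.876). MiR-214-5p was listed above 0 in normal 4 alone, at 2.31 normalized counts, and was not tested. For the 4 low entries the intervals spanned more than 4 log2 units, so differences of several fold in either direction could go undetected for miR-145-5p, miR-199b-5p and miR-214-3p.

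**Figure D2:**
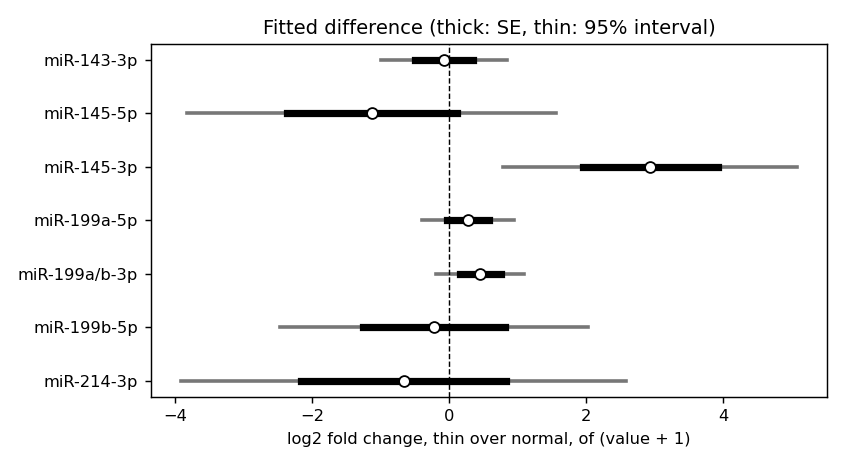
Log2 fold change, thin over normal, of (value + 1) for the 7 tested sequences, with the SE as a thick and the 95% interval as a thin line. The interval of miR-145-3p, 0.79 to 5.07, lies above 0 before adjustment and those of the other 6 include 0; the intervals of miR-143-3p and of miR-199a-5p and miR-199a/b-3p are the narrow ones.

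The second question was whether the arms of a hairpin kept their ratio. Each ratio was taken within a library, on the log2 scale with 1 added to each value. The authors' scaling cancels for abundant arms but not where an arm is low or listed at 0, since the added 1 then sets much of the ratio. The hairpins of miR-143 and miR-214 were left out, since their 5p arms did not meet the filter used for levels. The p-values, two-sided, come from exact permutation of the 10 libraries into groups of 5. They were adjusted over 61 hairpins with both arms meeting that filter and 2 pairs of cluster mates. Of these 63 ratios, 0 had an adjusted p of 0.05 or less (0%), and 9 (14.3%) had an unadjusted p under 0.05. The smallest p the design allows is 0.00794. None of the members' 5 ratios separated the groups, against 3 of the 61 arm ratios (4.92%).

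The arms of miR-199a were nearly balanced. MiR-199a-5p exceeded miR-199a/b-3p in 9 of 10 libraries, all but thin 1, by a factor of 0.90 to 1.36 in thin and 1.12 to 1.49 in normal libraries. The log2 ratio was 0.18 ± 0.23 in thin and 0.36 ± 0.16 in normal camels (SD, n = 5 each), a difference of -0.18 (exact permutation p = 0.175, adjusted p = 0.611), and the groups overlapped. Because the 3p sequence is shared with miR-199b, it may hold reads of several hairpins. MiR-199b-5p was far below: miR-199a-5p exceeded it 53.03- to 187-fold in the 4 thin libraries where both were listed and 39.5- to 274-fold in the 5 normal libraries. The log2 ratio of miR-199b-5p to the shared 3p arm was -7.25 ± 2.13 in thin and -6.57 ± 1.11 in normal camels (exact permutation p = 0.651, adjusted p = 0.850).

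The arms of miR-145 stood in a lower 5p to 3p ratio in thin camels on average. Where both were listed, miR-145-5p over miR-145-3p was 4.40, 2.43, 1.14 and 0.649 in thin 2 to 5, against 3.55, 11.9 and 18.5 in normal 1, normal 4 and normal 5. In thin 1 the 5p arm was listed at 0 beside 79.0 normalized counts of the 3p arm, and in normal 2 and normal 3 the 3p arm was listed at 0. The log2 ratio with 1 added to each value was -6.32, 2.09, 1.24, 0.18 and -0.61 in thin 1 to 5, against 1.755, 4.66, 2.93, 3.44 and 4.13 in normal 1 to 5. Thin 2 lay above normal 1, so the groups overlapped. The means were -0.69 ± 3.31 in thin and 3.38 ± 1.12 in normal camels, a difference of -4.07 (exact permutation p = 0.0159, adjusted p = 0.250), which did not pass. As with its level, the 3p arm met the filter for testing through the thin group alone. All p-values of this ratio are therefore given as a description. The difference was -2.66 without thin 1 (exact p = 0.0238, adjusted p = 0.30) and -2.17 with 10 added to each value (exact p = 0.0476, adjusted p = 0.333). Without normal 4 and normal 5 it was -3.80 (exact p = 0.0893, adjusted p = 0.716). Without the 3 deepest libraries it was -4.02 (exact p = 0.143, adjusted p = 0.75). Fewer libraries allow fewer splits, so these p-values cannot be as small. With each 0 set to 5 steps it was -2.97 (exact p = 0.0317, adjusted p = 0.312), and with each 0 set to 10 steps -2.37 (exact p = 0.0794, adjusted p = 0.385).

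**Figure D3:**
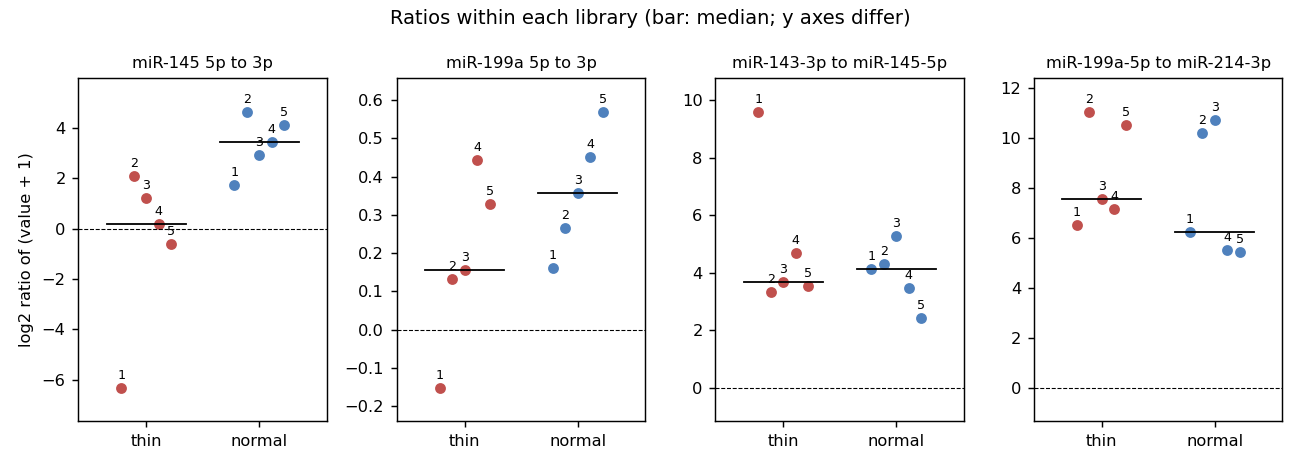
Log2 ratios of (value + 1) within each library for the arms of miR-145 and miR-199a and for 2 pairs of cluster mates, 1 numbered point per camel, thin left and normal right, with the median as a bar and a dashed line at equal values; each panel has its own y axis. Of the 5 thin values of miR-145, 4 lie below 1.755, the lowest normal value, and thin 1, at -6.32, is the one with its 5p arm listed at 0.

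The third question was whether cluster mates went together. MiR-143-3p exceeded miR-145-5p in all 10 libraries, 10.2- to 26.6-fold in the 4 thin libraries where both were listed and 5.41- to 44.3-fold in the 5 normal ones. The log2 ratio of (value + 1) was 4.98 ± 2.64 in thin and 3.92 ± 1.06 in normal camels, a difference of 1.05 (exact permutation p = 0.579, adjusted p = 0.849), which turned to -0.10 without thin 1 (exact p = 0.857). MiR-199a-5p, which can come from more than one hairpin, exceeded miR-214-3p in all 10 libraries, 96.95- to 215-fold in the 3 thin and 44.7- to 78.9-fold in the 3 normal libraries where both were listed. Its log2 ratio was 8.56 ± 2.08 in thin and 7.62 ± 2.62 in normal camels, a difference of 0.94 (exact permutation p = 0.524, adjusted p = 0.786), which turned to -0.49 without normal 4 and normal 5 (exact p = 0.946).

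Across the 10 libraries, 4 pairs of members were compared on the log2(value + 1) scale. Both values of a pair share the library and its scaling, which the permutation p-values do not take into account. These p-values were adjusted over the 4 pairs of members alone, so they do not compare with the other adjusted p-values, which cover all tested entries or ratios. MiR-199a-5p and miR-199a/b-3p varied together, with Pearson's r = 0.918 (permutation p = 0.00027, adjusted p = 0.00108) and Spearman's rho = 0.879 (permutation p = 0.00169, adjusted p = 0.00676). Without thin 4 and normal 2, the libraries farthest from the median of miR-199a-5p, r was 0.767, and r of the deviations from the group means was 0.926. A correlation this high was not particular to the arms. MiR-28-3p, the closest of the other tested entries, had r = 0.912 with miR-199a-5p. MiR-143-3p and miR-145-5p had r = 0.524 (permutation p = 0.120, adjusted p = 0.240) and rho = 0.758 (permutation p = 0.0148, adjusted p = 0.0296). Without normal 3 and normal 5, the libraries farthest from the median of miR-143-3p, r was 0.193 and rho 0.619, and without normal 4 and normal 5 r was 0.222, so r did not hold without these high or low libraries. Thin 1 lay apart with miR-145-5p at 0. The arms of miR-145 had r = -0.0305 (permutation p = 0.931, adjusted p = 0.931) and rho = -0.134 (permutation p = 0.714, adjusted p = 0.714). Without thin 1 and normal 5 their r was 0.629, while rho was only 0.252. MiR-143-3p and miR-199a-5p, from different clusters, had r = 0.362 (permutation p = 0.307, adjusted p = 0.410) and rho = 0.515 (permutation p = 0.134, adjusted p = 0.179), and without normal 3 and normal 5 r was 0.642.

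**Figure D4:**
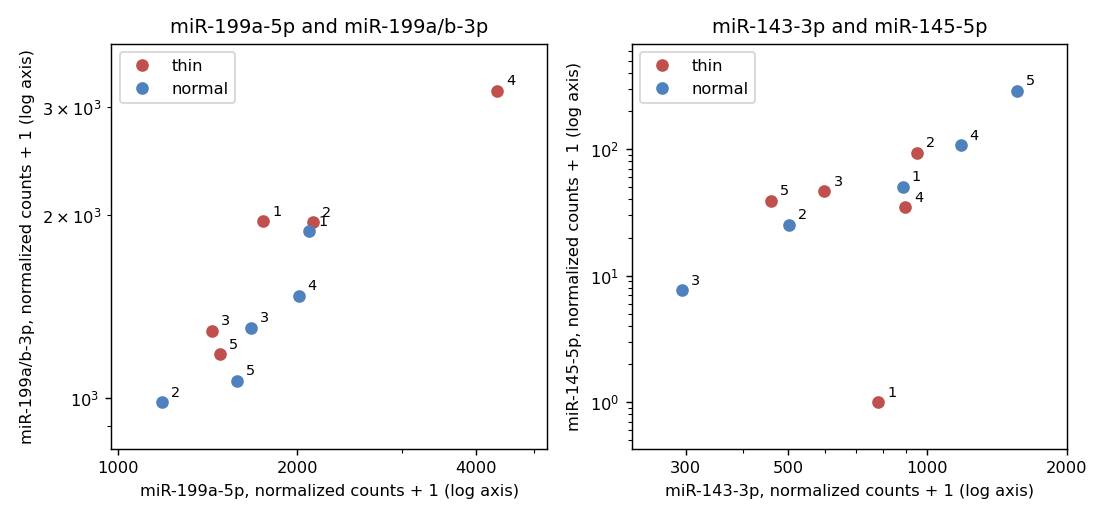
Level of miR-199a-5p against miR-199a/b-3p and of miR-143-3p against miR-145-5p, in normalized counts plus 1 on log axes, 1 numbered point per camel, thin in red and normal in blue. The arms of miR-199a lie along a line (r = 0.918) with thin 4 at its top, and in the other panel thin 1 lies apart, with 781 of miR-143-3p and miR-145-5p listed at 0.

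The tested small RNAs whose levels followed each member most closely over the 10 libraries are given with Pearson's r of the log2(value + 1) as a description, since each is the top of a search through all 468. For miR-199a-5p they were miR-28-3p (0.912), miR-222-3p (0.87) and miR-24-3p (0.797), and for miR-199a/b-3p miR-221-3p (0.898), miR-28-3p (0.896) and miR-193a-5p (0.884). For miR-143-3p they were miR-195-5p (0.89), miR-125b-5p (0.858) and miR-125a-5p (0.82). MiR-145-5p had miR-26b-3p (0.836), miR-1277-3p (0.832) and miR-98-3p (0.828), and miR-199b-5p had miR-26b-3p (0.92), miR-1277-3p (0.874) and miR-545-3p (0.823). Of these, miR-26b-3p, miR-1277-3p and miR-98-3p were each listed at 0 in 1 library. The entries nearest to miR-145-3p were miR-34a-5p (0.915), miR-125a (0.85) and miR-130a-3p (0.822), each listed at 0 in 2 libraries. Those nearest to miR-214-3p were miR-452-5p (0.895), listed at 0 in 4 libraries, a predicted small RNA (0.871) and miR-30d-5p (0.834). How far values listed at 0 set these correlations was not tested.

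Of a list of 25 other miRNAs of stromal, smooth muscle and vascular cells, 22 were tested in 23 entries. MiR-21-5p, which is raised in many tumours and in fibrosis, was the only one to pass, higher in thin camels, and no entry passed lower (1 of 23, against 1.92% of all tested). Its log2 fold change was 1.13 ± 0.19 (limma adjusted p = 0.00735), while a lower entry of the same miRNA with 2 more bases at its left end did not pass (adjusted p = 0.757). Among all 23, 12 had a higher and 11 a lower mean log2 value in thin camels, and their median log2 fold change was 0.00 against -0.01 over all tested. The entries of miR-99a-5p and miR-100-5p had the same means and fold change, so the same measurement is counted under both names among the 11. The abundant members were miR-126-3p, the miRNA of endothelial cells, at a log2 fold change of -0.01 ± 0.39 (adjusted p = 0.994), miR-140-3p, a miRNA of cartilage, at 0.00 ± 0.33 (adjusted p = 0.9997), and miR-29a-3p, which restrains collagen genes, at 0.55 ± 0.35 (adjusted p = 0.603).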

How the data were processed

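Small RNA of plasma exosomes was sequenced from 10 camels. Per the labels' protocols, the ACGT101-miR program took out adapter dimers, junk, repeats, reads of low complexity and those of common RNA families. Not given in the sources used here are the aligner, miRBase version, genome build and scaling. The authors' deposited values are a signal, called normalized counts in the file headers, with 1 column for each camel. Although the protocol mentions 9 libraries, 10 are labelled and tabulated.

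Low values were multiples of a step particular to each library (98.8% to 99.9% of them, tolerance 0.02 of a step), which gave totals of 505263 to 4474902 steps. Whether a read is worth 1 step or 2 was not settled, so reads may number as few as 252632 in the shallowest library, and no count test was run. Few values lay below 5 steps, so 0s were also tried at 5 steps, and at 10 for entries with even multiples alone (5 for the others), though such entries were listed as low as 6 steps. Both were chosen after seeing the data.

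Limma 3.58.1, with its trend option, was run in R 4.3.3 on log2(value + 1) of the 468 entries at 10 or more in at least 5 libraries. Group was the term, and Benjamini-Hochberg adjustment ran over all 468 at a threshold of 0.05. The fit was tested on simulated data. Ratios were tested in Python 3.11.15 and adjusted over all 63 ratios, not over the members' 5 as planned, and the planned test of the share of the total was not made, since the members and lists were chosen with earlier results of these data known. Entries with one sequence under several names hold the same reads. Named are all members, the called and the 4 most abundant entries of the stromal list, and the 3 tested entries most correlated with each member. The p-values of levels and ratios set group differences against the spread between libraries. With 1 library per camel, spread between camels and spread from library preparation cannot be told apart.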

Additional observations from a re-analysis of the deposited data

Results flagged for a closer look

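In 7 of the 29 groups of 5 values that were not all 0, 1 camel lay far from the other 4, with a gap to its neighbour of over 0.71 of the group's range. About 1 in 20 groups would show this if values were independent and normally distributed. These values are not: a group with 4 values listed at 0 is flagged in any case, and ratios share arms with the levels. The 7 flags are therefore a list of values to look at, not an excess over chance. MiR-199a-5p was 4338 normalized counts in thin 4 against 1436 to 2126 in the other thin camels, and thin 4 was the deepest of the thin libraries. MiR-143-5p was 21.1 in thin 2 and at most 3.23 in the other thin camels, and 7.592 in normal 1 with the other 4 normal camels listed at 0. MiR-214-5p was 2.311 in normal 4 and listed at 0 in the other 4. In normal 5, miR-199b-5p was 40.13 against 4.32 to 13.9 in the other normal camels. In thin 1, where miR-145-5p and miR-199b-5p were both listed at 0, the log2 ratio of miR-199b-5p to its 3p arm was -10.93 against -7.05 to -5.56 in the other thin camels, and that of miR-143-3p to miR-145-5p was 9.61 against 3.34 to 4.69. Why these libraries stood apart was not tested.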

How the results depend on the processing

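No member passed in any of the 23 alternatives to the test of levels, and none of the 5 ratios passed in any of theirs. MiR-145-3p stayed higher in thin camels in the 22 alternatives that could test it (adjusted p 0.131 to 0.406), as did miR-199a-5p and miR-199a/b-3p in 23. In the main test miR-145-3p met the filter through the thin group alone, and most alternatives reuse the same libraries and filter. Its unchanged sign and its p-values are therefore given as a description, not as a further test of the difference. With single libraries left out, miR-145-3p ranged from 2.37 to 3.38, miR-199a/b-3p from 0.25 to 0.61, miR-199a-5p from 0.0023 to 0.40, miR-143-3p from -0.42 to 0.18, miR-145-5p from -1.81 to -0.01, miR-199b-5p from -0.68 to 0.66 and miR-214-3p, testable in 5 of these, from -1.44 to -0.06. The log2 ratios ranged from -4.76 to -2.66 for miR-145, -0.24 to -0.10 for miR-199a, -1.11 to 0.24 for miR-199b, -0.10 to 1.46 for miR-143-3p to miR-145-5p and 0.32 to 1.71 for miR-199a-5p to miR-214-3p. The difference in the share of the total, 0.223 percentage points, ranged from 0.105 without thin 4 to 0.293.

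Signs turned without normal 4 and normal 5 for miR-143-3p (0.49), miR-145-5p (0.085), miR-199b-5p (0.33) and the ratio of miR-199a-5p to miR-214-3p (-0.49), and without the 3 deepest libraries for miR-143-3p (0.41) and that ratio (-0.14). MiR-143-3p turned with equal library totals (0.11), and miR-199b-5p with log2(value + 10) (0.084) and with 0s set to 5 steps (0.25). The cause was not tested. With the replicate number as a block, which the labels do not describe as a pairing (correlations of same-numbered camels -0.199 to 0.518, with 2 of 5 thin camels closest to their own number), 9 small RNAs were called as without it and no member (miR-145-3p adjusted p = 0.131). With paired sign flips the smallest possible p is 0.0625, which the ratios of miR-145 and miR-199a had. Low values limit miR-145-3p, miR-145-5p, miR-199b-5p and miR-214-3p.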

Other observations

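The steps of the values differed between the miR-199 entries and the other members. All 37 values above 0 of miR-143, miR-145 and miR-214 were whole and even multiples of the step of their library, with a lowest value of 10 steps. MiR-199a-5p had 6 odd multiples of 10 and miR-199b-5p 2 of 9, with a lowest value of 5 steps, while 3 of 10 values of miR-199a/b-3p were whole multiples. Over the whole table, 90.5% of 6198 low whole values were even, and 442 of 567 entries with at least 4 such values were even throughout. The lowest value in an entry even throughout was 6 steps. For scale, 5 and 10 steps were 4.32 and 8.65 normalized counts in normal 2, 2.37 and 4.73 in normal 3, and 4.11 and 8.22 in thin 1, the libraries where an arm of miR-145 was listed at 0. What sets the steps was not tested.

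A cattle entry named miR-199c was listed in thin 4 alone at 2.30 normalized counts.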
